A study of Homo sapiens with 10 samples.

Results

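The AP-1 family of transcription factors was followed by 8 genes chosen by their symbols, FOS, FOSB, FOSL1, FOSL2, JUN, JUNB, JUND and ATF3, all of which were found among the 23284 genes of the expression table. Their transcripts were measured by RNA-seq in K562, an established erythroleukemia line derived from a patient with chronic myeloid leukemia. Cells were kept for 48 h with DMSO, the vehicle, or with CBP30 or I-CBP112, both inhibitors of the bromodomains of the histone acetyltransferases CREBBP and EP300, each at 2 µM and at 5 µM. Each of the 5 conditions had 2 samples, 10 libraries in all, which the labels call biological replicates without naming their cultures. All cells were of this 1 line, so the values describe this line at 1 time point and under these concentrations. Levels are given as FPKM, fragment counts scaled to the length of the transcript and to the size of the library, so that levels can be compared between genes.

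AP-1 is a dimer of basic leucine zipper (bZIP) proteins. JUN proteins pair with one another or with FOS proteins, whereas FOS proteins need a JUN partner to bind DNA, and ATF3, a stress-induced member of the ATF/CREB branch, also pairs with JUN proteins. JUN and FOS are classical immediate early genes, switched on within minutes of mitogen or stress signals through MAP kinases, and their proteins recruit CREBBP and EP300 as coactivators. The dimers bind the TPA response element, TGACTCA, or the closely related cAMP response element, and the JUN gene is known to be bound by AP-1 dimers itself.

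In the annotation of GRCh37, the human genome build named for these files, JUN lies on the minus strand of chromosome 1 from 59242517 to 59249720, JUNB on the plus strand of chromosome 19 from 12902300 to 12904129 and JUND on the minus strand of chromosome 19 from 18390504 to 18392432, each as a gene without introns. FOS lies on the plus strand of chromosome 14 from 75745529 to 75748933, FOSB on the plus strand of chromosome 19 from 45971253 to 45978437, FOSL1 on the minus strand of chromosome 11 from 65659520 to 65668044, FOSL2 on the plus strand of chromosome 2 from 28615315 to 28640184 and ATF3 on the plus strand of chromosome 1 from 212738676 to 212794119. FOSB overlaps ERCC1, JUNB overlaps HOOK2 and ATF3 overlaps RN7SL512P on the opposite strand, and FOSL2 overlaps FOSL2-AS1 on the opposite strand and 1 more noncoding gene on its own strand. The library kit keeps strand, but whether the counting used it is not given in the sources used here, so reads of these overlapping genes may not be fully told apart.

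The 250 bases before the RefSeq start site are shown for the 3 JUN genes, of which JUN and JUND were called with CBP30 and JUNB was not, and for FOS, which was higher with both compounds. The sequences come from RefSeq on GRCh38.p14, whose table held 7 of the 8 members, all but FOSL1. Each window has 1 exact match on GRCh37, at the position given. All run 5′ to 3′ on the strand of the gene, and capitals mark matches to TGACNTCA, the cAMP response element in which N stands for any base, or to its core TGACGT, on either strand (reverse complement ACGTCA).
JUN, chr1:59249720-59249969, minus strand: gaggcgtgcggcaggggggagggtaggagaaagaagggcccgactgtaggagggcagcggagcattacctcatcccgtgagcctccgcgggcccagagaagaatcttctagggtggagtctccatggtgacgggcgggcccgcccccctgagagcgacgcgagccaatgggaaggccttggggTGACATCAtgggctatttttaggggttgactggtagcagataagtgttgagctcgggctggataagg
JUND, chr19:18392433-18392682, minus strand: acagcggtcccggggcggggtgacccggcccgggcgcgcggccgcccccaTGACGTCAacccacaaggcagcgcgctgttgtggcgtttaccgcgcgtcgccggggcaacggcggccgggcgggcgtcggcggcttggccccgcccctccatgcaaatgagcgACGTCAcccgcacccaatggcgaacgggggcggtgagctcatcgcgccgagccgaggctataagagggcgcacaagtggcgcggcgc
JUNB, chr19:12902050-12902299, plus strand: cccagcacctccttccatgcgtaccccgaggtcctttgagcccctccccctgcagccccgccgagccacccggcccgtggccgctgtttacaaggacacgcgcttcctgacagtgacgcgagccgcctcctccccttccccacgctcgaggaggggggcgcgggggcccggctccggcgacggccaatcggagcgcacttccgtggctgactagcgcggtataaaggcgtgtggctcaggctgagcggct
FOS, chr14:75745281-75745530, plus strand: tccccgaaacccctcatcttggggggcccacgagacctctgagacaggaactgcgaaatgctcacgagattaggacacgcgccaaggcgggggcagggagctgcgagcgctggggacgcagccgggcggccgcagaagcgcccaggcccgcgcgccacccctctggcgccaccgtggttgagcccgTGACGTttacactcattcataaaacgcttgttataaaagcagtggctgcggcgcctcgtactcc
The JUN window held TGACATCA from 67 to 60 bases before the start. The JUND window held the full palindrome TGACGTCA from 200 to 193 bases before the start and an ACGTCA from 87 to 82 bases before it. The FOS window held TGACGT from 64 to 59 bases before the start, and none of the 3 motifs was found in the JUNB window. Among windows not printed, FOSB held TGACGT at 60 to 55 bases and FOSL2 held it at 66 to 61 bases before the start. ATF3 had a window from position 212738499, with TGACATCA at 123 to 116 bases before the start. Its other window, from position 212788110, held none of the motifs. Of 35116 windows of this length in the table, 4.20% held TGACTCA, 6.87% held TGACNTCA and 7.10% held TGACGT, which is part of every TGACGTCA. No window of the 7 members in the table held TGACTCA, and FOSL1 could not be searched. These matches describe letters and no binding was measured.

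The 10 libraries summed to between 547504 and 689095 FPKM, and the number of reads behind them is unknown because no counts were given. Replicates correlated at r = 0.962 to 0.976 across the genes tested, which are not independent of one another. Replicate 1 of 2 µM CBP30 stood apart, with levels relative to the DMSO mean that fell with transcript length (Spearman's rho = -0.429 across genes). For its replicate 2 this rho was -0.0435, and for the 5 µM CBP30 libraries 0.177 and 0.176. All 10 of the K562 marker genes averaged at least 18.9 FPKM, while of 12 markers of other cell types 7 averaged below 0.5 FPKM (MS4A1, CD79A, CD14, CSF1R, MPO, CDH1 and COL3A1). Summed over their lists, lymphoid markers were at 1.74 to 4.31 FPKM per library, monocyte and macrophage markers at 38.0 to 52.3, nearly all LYZ, and epithelial and stromal markers at 33.7 to 60.2, nearly all EPCAM. The summed K562 markers moved with treatment, from 1930 and 1979 FPKM with DMSO to 725 and 943 at 2 µM CBP30, 651 and 679 at 5 µM CBP30, 1162 and 1283 at 2 µM I-CBP112, and 1117 and 1207 at 5 µM I-CBP112. Of these 10 genes, 8 were lower and 1 higher at 5 µM CBP30. The part of this shift in the results on the AP-1 genes was not tested. In such bulk samples, fewer cells of a type and less RNA per cell cannot be told apart.

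With DMSO, JUND was the most abundant member at 83.2 ± 5.56 FPKM (mean ± SD, n = 2 here and below), followed by JUNB at 48.1 ± 2.42, ATF3 at 17.2 ± 0.196, JUN at 7.51 ± 0.589, FOSL1 at 6.42 ± 0.599, FOS at 2.28 ± 0.123, FOSL2 at 0.683 ± 0.175 and FOSB at 0.250 ± 0.047. Neighbours in this order did not overlap between replicates, although JUN and FOSL1 were close. JUN genes therefore made up most of the family's transcripts, and FOSL1, which encodes FRA1, was the leading FOS gene. At 5 µM CBP30 the order changed, since JUN stood above ATF3 and FOSL1 stood below FOS and FOSL2. At 2 µM CBP30, FOS stood above FOSL1, and with either concentration of I-CBP112 the order was that of DMSO.

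Changes were tested with limma on log2(FPKM + 1), in 1 fit of the 12788 genes that averaged at least 0.5 FPKM, with p-values adjusted by Benjamini-Hochberg over all of them. A gene was called changed at an adjusted p under 0.05. FOSB did not pass the filter, so 7 members were tested. At 5 µM CBP30, 6 of 7 were called against DMSO, beside 46.6% of all genes tested. Of these, JUN, FOSL2, JUND, FOS and ATF3 rose (5 of 7, beside 21.2% of all genes called higher) and FOSL1 fell (1 of 7, beside 25.4% called lower). At 2 µM CBP30, JUN, JUND and FOS rose and FOSL1 fell, 4 of 7 beside 32.1% of all genes, of which 15.9% were higher and 16.3% lower. At 5 µM I-CBP112, FOS alone among the 7 passed the test and was higher, beside 7.12% of all genes, 3.84% higher and 3.28% lower. At 2 µM I-CBP112, limma called 0 of 7, of which 2 had an unadjusted p under 0.05, beside 1.6% of all genes, 0.868% higher and 0.735% lower. The median log2 change of the 7 members was 0.65, 0.27, 0.14 and 0.07 in these 4 comparisons, which share the DMSO samples, beside medians over all genes between -0.0096 and 0.0051.

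**Figure D1:**
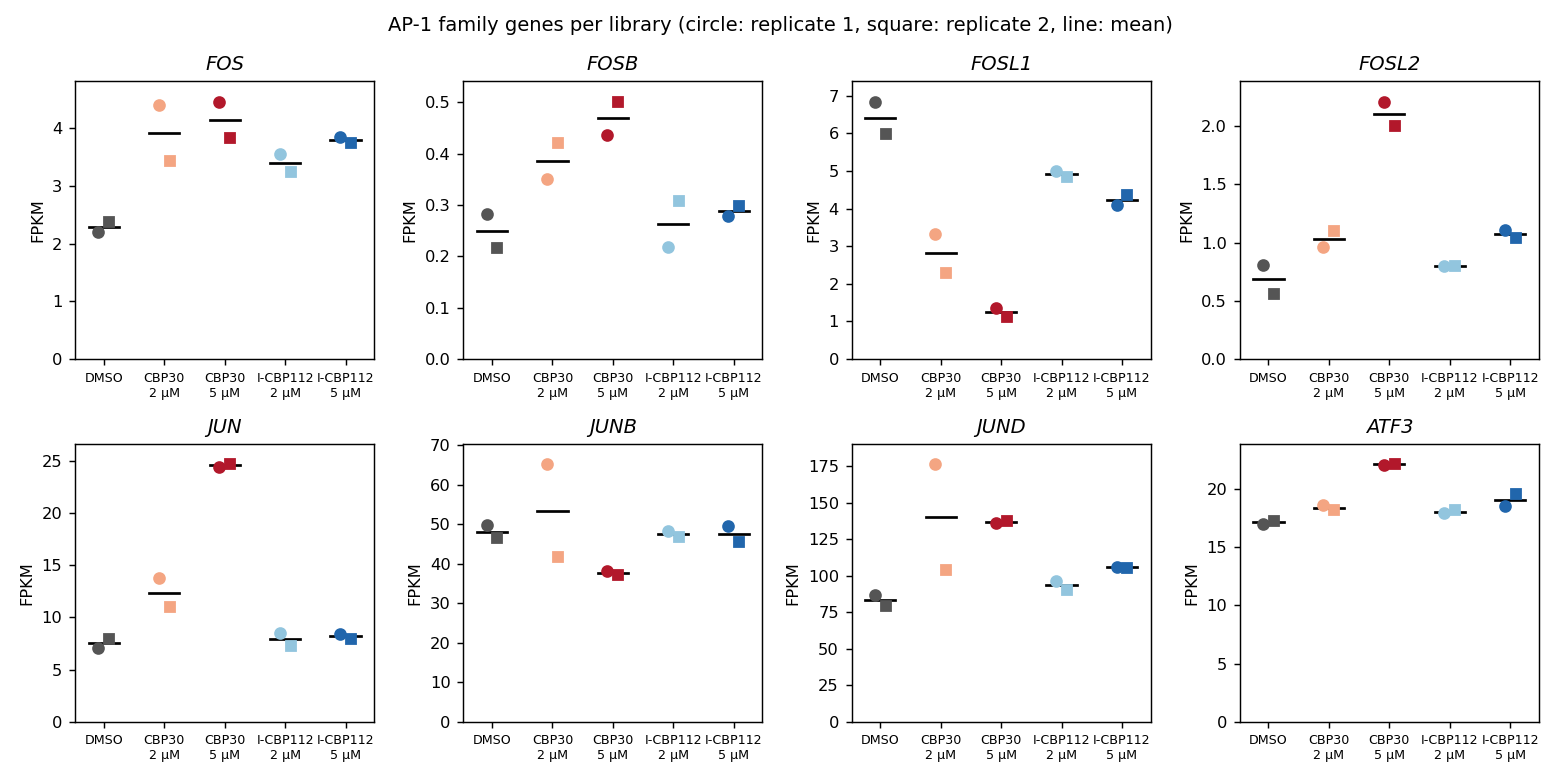
FPKM of each of the 8 AP-1 genes (y axis, linear from 0, a scale of its own per gene) in each of the 10 libraries, by condition on the x axis. Circles are replicate 1, squares replicate 2 and lines the mean of 2 libraries. JUN reached 24.5 and 24.7 FPKM at 5 µM CBP30, above every other library, FOSL1 fell to 1.35 and 1.12, and replicate 1 of 2 µM CBP30 was the highest library for JUNB and JUND.

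JUN, which encodes c-Jun, the partner that gives AP-1 most of its transactivating strength, showed the largest rise among the members. Its levels were 7.09 and 7.93 FPKM with DMSO, 13.8 and 11.0 at 2 µM CBP30, and 24.5 and 24.7 at 5 µM CBP30. Both CBP30 groups lay above DMSO without overlap, and the 5 µM libraries lay above the 2 µM libraries. The log2 change against DMSO was 1.59 ± 0.11 (SE) at 5 µM (adjusted p = 6.28e-05), a ratio of mean FPKM of 3.27, and 0.65 ± 0.11 at 2 µM (adjusted p = 0.00623). JUN ranked 151 from the top of 12788 genes by its change at 5 µM CBP30. Under I-CBP112 it stood at 8.53 and 7.24 FPKM at 2 µM and 8.46 and 7.90 at 5 µM. Both of these groups overlapped DMSO, and their 95% confidence intervals for the log2 change were -0.21 to 0.33 and -0.16 to 0.38.

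JUND, the JUN family gene that most cells express constitutively, was at 87.1 and 79.2 FPKM with DMSO, 176 and 104 at 2 µM CBP30, and 136 and 137 at 5 µM CBP30. All 4 CBP30 libraries lay above DMSO, and replicate 1 of 2 µM, the library whose levels fell with transcript length, was 1.70 times replicate 2. The log2 change was 0.71 ± 0.21 at 5 µM (adjusted p = 0.0279) and 0.70 ± 0.21 at 2 µM (adjusted p = 0.0418). Neither call was stable: the 5 µM call was lost without any 1 of the DMSO, 5 µM CBP30 or 5 µM I-CBP112 libraries (adjusted p = 0.0502 to 0.127), and the 2 µM call without any 1 of the DMSO, 5 µM CBP30, 2 µM I-CBP112 or 5 µM I-CBP112 libraries (adjusted p = 0.071 to 0.177). JUND was at 96.6 and 90.2 FPKM at 2 µM I-CBP112 and at 106 and 105 at 5 µM. These 4 libraries also lay above DMSO, with log2 changes of 0.17 ± 0.21 and 0.34 ± 0.21 that did not pass the test (adjusted p = 0.829 and 0.402). Without replicate 1 or replicate 2 of 2 µM CBP30, whose spread for JUND enters the error of every comparison, the 5 µM I-CBP112 change passed it (adjusted p = 0.0082 in both).

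JUNB, whose protein is a weaker activator than c-Jun and restrains it in many settings, was at 49.8 and 46.4 FPKM with DMSO and at 38.1 and 37.3 at 5 µM CBP30. The groups did not overlap, but the log2 change of -0.34 ± 0.18 did not pass the test (adjusted p = 0.152). At 2 µM CBP30 its libraries lay on either side of DMSO, at 65.1 and 41.7 FPKM, the widest gap between replicates of this gene. The higher value was that of replicate 1, the library whose levels fell with transcript length. Without replicate 2 of that pair, JUNB was higher than with DMSO, by 0.43 (adjusted p = 0.00212), and without replicate 1 it stood at -0.20 (adjusted p = 0.0541). Leaving out either of these 2 libraries also brought the 5 µM change past the threshold (adjusted p = 0.00181 in both). Under I-CBP112, JUNB stood at 48.2 and 46.8 FPKM at 2 µM and 49.5 and 45.4 at 5 µM, both overlapping DMSO.

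FOSL1 was the only member that passed the test as lower with CBP30. FRA1, its product, lacks the transactivation domain of c-Fos and is itself a common AP-1 target. FOSL1 was at 6.84 and 5.99 FPKM with DMSO, 3.32 and 2.29 at 2 µM CBP30, and 1.35 and 1.12 at 5 µM CBP30. The 3 groups did not overlap and stepped down with concentration. The log2 change was -1.73 ± 0.13 at 5 µM (adjusted p = 8.07e-05), when the mean was 19.3% of that with DMSO, and -0.97 ± 0.13 at 2 µM (adjusted p = 0.00221). FOSL1 ranked 122 from the bottom of the 12788 genes by its change at 5 µM. Under I-CBP112 it stood at 5.00 and 4.84 FPKM at 2 µM and 4.09 and 4.37 at 5 µM, below both DMSO libraries. The log2 changes of -0.32 ± 0.13 and -0.50 ± 0.13 did not pass the test (adjusted p = 0.341 and 0.0694), although the 5 µM change did without replicate 1 of 2 µM CBP30 and without its replicate 2 (adjusted p = 0.00918 and 0.00915), and under 6 of 20 alternatives in all.

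FOSL2, which encodes FRA2, the other FOS protein without a strong transactivation domain, was at 0.807 and 0.559 FPKM with DMSO and at 2.21 and 2.00 at 5 µM CBP30. The ratio of means was 3.08, close to that of JUN, while the log2 change was 0.89 ± 0.09 (adjusted p = 0.000331), because adding 1 to such low values shrinks the change. At 2 µM CBP30 it was at 0.964 and 1.10 FPKM, above both DMSO libraries, with a log2 change of 0.27 ± 0.09 that missed the threshold (adjusted p = 0.0609). It passed under 6 of 20 alternatives, among them without replicate 1 of DMSO (adjusted p = 0.0418) and with the length trend removed (log2 change 0.39, adjusted p = 0.017), and adjusted p ranged from 0.0154 to 0.247 over the 20. Under I-CBP112 it stood at 0.797 and 0.802 FPKM at 2 µM and 1.11 and 1.04 at 5 µM. Only the 5 µM libraries lay above both DMSO libraries, with a log2 change of 0.31 ± 0.09 (adjusted p = 0.107).

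FOS, the founding member of the FOS family, was higher with both compounds. It was at 2.19 and 2.37 FPKM with DMSO, 4.40 and 3.43 at 2 µM CBP30, 4.46 and 3.82 at 5 µM CBP30, 3.55 and 3.24 at 2 µM I-CBP112, and 3.84 and 3.74 at 5 µM I-CBP112. All 8 treated libraries lay above both DMSO libraries. The log2 change was 0.65 ± 0.11 at 5 µM CBP30 (adjusted p = 0.00263), 0.58 ± 0.11 at 2 µM CBP30 (adjusted p = 0.00804) and 0.55 ± 0.11 at 5 µM I-CBP112 (adjusted p = 0.0296). At 2 µM I-CBP112 it was 0.42 ± 0.11, which did not pass (adjusted p = 0.136) but did without replicate 1 or replicate 2 of 2 µM CBP30 (adjusted p = 0.0280 and 0.0281). The 2 µM CBP30 call was lost without replicate 1 of DMSO (adjusted p = 0.0552). The 5 µM I-CBP112 call was lost without any 1 library of DMSO, 5 µM CBP30, 2 µM I-CBP112 or 5 µM I-CBP112, with adjusted p from 0.0522 to 0.178.

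FOSB, an immediate early gene best known from neurons, was the lowest member, at 0.283 and 0.216 FPKM with DMSO, 0.351 and 0.421 at 2 µM CBP30 and 0.437 and 0.502 at 5 µM CBP30. The 4 CBP30 libraries lay above DMSO. Under I-CBP112 it stood at 0.219 and 0.307 FPKM at 2 µM and 0.280 and 0.298 at 5 µM, which overlapped DMSO. Its average was under the 0.5 FPKM filter. In a fit without that filter its log2 change at 5 µM CBP30 was 0.23 ± 0.05 (adjusted p = 0.0110).

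ATF3, induced by the integrated stress response among other signals, had the smallest rise among the called members and the smallest SE. It was at 17.0 and 17.3 FPKM with DMSO, 18.7 and 18.2 at 2 µM CBP30, and 22.1 and 22.1 at 5 µM CBP30. All CBP30 libraries lay above DMSO, with a log2 change of 0.35 ± 0.05 at 5 µM (adjusted p = 0.00087) and of 0.10 ± 0.05 at 2 µM (adjusted p = 0.147). Under I-CBP112 it stood at 18 and 18.2 FPKM at 2 µM and 18.6 and 19.6 at 5 µM. These too lay above DMSO, with log2 changes of 0.07 ± 0.05 and 0.14 ± 0.05 that did not pass (adjusted p = 0.59 and 0.118), although the 5 µM change did without replicate 1 or replicate 2 of 2 µM CBP30 (adjusted p = 0.0316 and 0.0317).

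**Figure D2:**
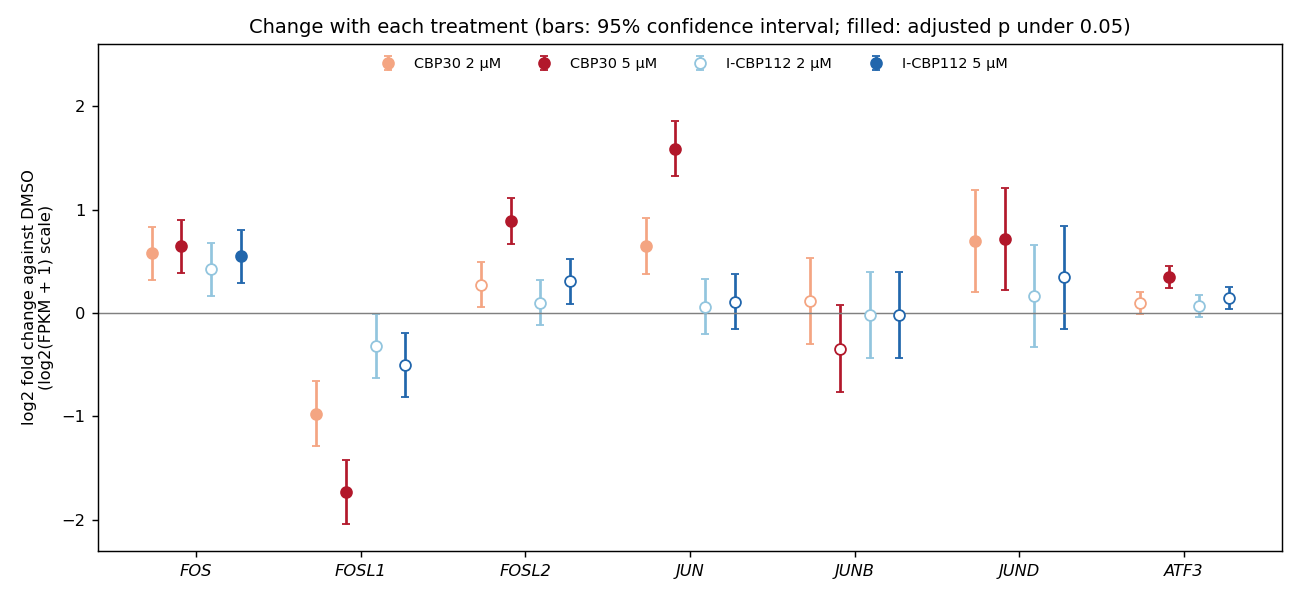
Log2 fold change of the 7 tested AP-1 genes against DMSO (y axis, on the log2(FPKM + 1) scale) for each treatment, with 95% confidence intervals that are not adjusted for the number of genes. Filled points had an adjusted p under 0.05. At 5 µM CBP30, JUN stood at 1.59 and FOSL1 at -1.73, while the FOS points of the 4 treatments lay between 0.42 and 0.65.

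The 2 concentrations of CBP30 differed in 4 of 7 members, beside 38.9% of all genes. At 5 µM rather than 2 µM, JUN was higher by 0.94 ± 0.11 on the log2 scale (adjusted p = 0.00252), FOSL2 by 0.61 ± 0.09 (adjusted p = 0.0053) and ATF3 by 0.25 ± 0.05 (adjusted p = 0.00858), and FOSL1 was lower, at -0.76 ± 0.13 (adjusted p = 0.00775). The ATF3 difference was lost without replicate 1 or replicate 2 of 5 µM CBP30 (adjusted p = 0.0572 and 0.0606), and the FOSL1 difference without replicate 2 of 5 µM CBP30 (adjusted p = 0.0604). FOS differed by 0.07, with a 95% confidence interval of -0.19 to 0.32. With each library's trend with transcript length removed, the FOS difference was 0.28 and passed the test (adjusted p = 0.035, and 0.0357 with the replicate block). JUND differed by 0.02, with an interval of -0.48 to 0.51. For JUND this value depended on 1 library of 2 µM CBP30, since it was 0.40 without replicate 1 and -0.36 without replicate 2. The latter rests on replicate 1, the library with the length trend. JUNB stood at -0.46 ± 0.18, which did not pass the test (adjusted p = 0.0756). Without replicate 2 of 2 µM CBP30, which again left the library with the length trend, JUNB stood at -0.78. Between 5 µM and 2 µM I-CBP112, limma called 0 of 7 members, with 0 at an unadjusted p under 0.05, beside 0.0626% of all genes. The intervals there allowed a log2 difference of up to 0.32 for JUN and down to -0.49 for FOSL1. The widest, for JUND, ran from -0.32 to 0.67.

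At matched concentrations the compounds differed most for JUN and FOSL1. The paper that reported these data calls I-CBP112 the less potent inhibitor, so equal concentrations need not mean equal inhibition. It used 2 µM CBP30 because that concentration had been reported as unlikely to act on the BET family of bromodomain proteins. Whether potency or BET proteins had a part in the differences below was not tested. At 5 µM, 4 of 7 members differed between CBP30 and I-CBP112, beside 31.4% of all genes, and at 2 µM 2 of 7 differed, beside 15.6%. JUN was higher with CBP30 by 1.48 ± 0.11 on the log2 scale at 5 µM (adjusted p = 0.000249), a ratio of mean FPKM of 3.01, and by 0.59 ± 0.11 at 2 µM (adjusted p = 0.0192). FOSL1 was lower with CBP30, at -1.23 ± 0.13 at 5 µM (adjusted p = 0.000896) and -0.65 ± 0.13 at 2 µM (adjusted p = 0.022). Both 2 µM differences were lost without replicate 1 of 2 µM I-CBP112 (adjusted p = 0.058 for JUN and 0.124 for FOSL1) and without its replicate 2 (adjusted p = 0.106 and 0.0966).

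FOSL2 and ATF3 were higher with CBP30 at 5 µM, by 0.58 ± 0.09 (adjusted p = 0.00426) and 0.21 ± 0.05 (adjusted p = 0.0151). The ATF3 difference was lost without replicate 1 or 2 of 5 µM CBP30 (adjusted p = 0.0789 and 0.0837) or replicate 1 of 5 µM I-CBP112 (adjusted p = 0.103). For FOS no difference between the compounds passed the test. The interval of its log2 difference was -0.16 to 0.35 at 5 µM and -0.10 to 0.41 at 2 µM, so that differences of that size are not excluded. For JUND the difference was 0.37 at 5 µM, with an interval of -0.13 to 0.86, and 0.53 at 2 µM, with an interval of 0.04 to 1.02, and neither passed after adjustment (adjusted p = 0.22 and 0.12). Without replicate 1 or replicate 2 of 2 µM CBP30, JUND differed between the compounds at 5 µM (adjusted p = 0.00208 and 0.00209; 6 of 21 alternatives in all), as did JUNB, at -0.32 (adjusted p = 0.00338 and 0.00337). Without replicate 2 of 2 µM CBP30, the 2 µM difference was 0.91 for JUND, 0.45 for JUNB and 0.30 for FOS. These values rest on replicate 1 of 2 µM CBP30, the library whose levels fell with transcript length.

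**Figure D3:**
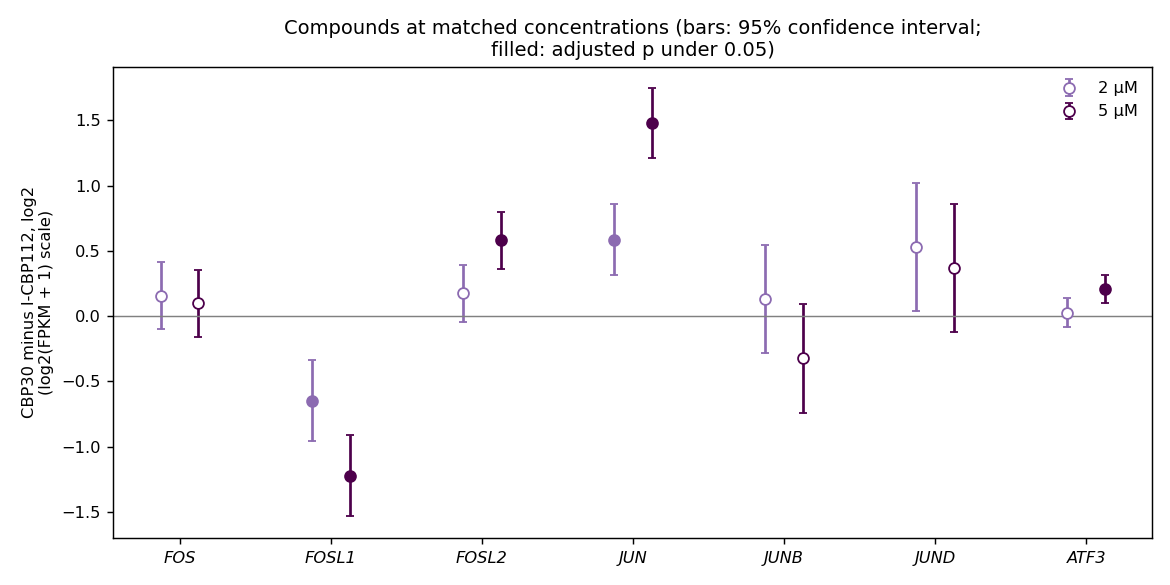
Difference between CBP30 and I-CBP112 at 2 µM and at 5 µM for the 7 tested AP-1 genes (y axis, log2 on the log2(FPKM + 1) scale, positive where CBP30 was higher), with 95% confidence intervals. Filled points had an adjusted p under 0.05. JUN stood at 1.48 and FOSL1 at -1.23 at 5 µM, whereas both FOS intervals included 0.

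The makeup of the family differed between conditions. The 4 FOS genes together were at 10.1 and 9.14 FPKM with DMSO and 8.46 and 7.44 at 5 µM CBP30. Within this sum, FOSL1 made up 66.6 ± 1.39% with DMSO, 34.2 ± 3.60% at 2 µM CBP30 and 15.5 ± 0.683% at 5 µM CBP30. FOS made up 23.8 ± 3.0% with DMSO, 48.0 ± 0.941% at 2 µM CBP30 and 52.0 ± 0.979% at 5 µM CBP30, and FOSL2 went from 7.05 ± 1.31% to 26.5 ± 0.549% at 5 µM. FOSL1 was the leading FOS gene in each DMSO library and FOS in each CBP30 library. With I-CBP112, FOSL1 remained the largest share, at 52.5 ± 0.285% at 2 µM and 45.1 ± 1.69% at 5 µM, and FOS stood at 36.2 ± 1.30% and 40.4 ± 1.15%. These shares are a description and were not tested.

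The 3 JUN genes together were at 144 and 134 FPKM with DMSO, 255 and 156 at 2 µM CBP30, and 199 and 199 at 5 µM CBP30. JUND made up more than the other two combined in every library, 59.9 ± 0.815% with DMSO and 68.7 ± 0.248% at 5 µM CBP30. JUNB went from 34.7 ± 0.101% to 18.9 ± 0.311%, and JUN from 5.43 ± 0.714% to 12.4 ± 0.063%. The JUN genes were 14.2 and 14.6 times the FOS genes in summed FPKM with DMSO and 23.5 and 26.7 times at 5 µM CBP30. JUN was 1.04 and 1.32 times FOSL1 with DMSO, 4.14 and 4.80 times at 2 µM CBP30, 18.1 and 22.0 times at 5 µM CBP30, 1.71 and 1.49 times at 2 µM I-CBP112, and 2.07 and 1.81 times at 5 µM I-CBP112.

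**Figure D4:**
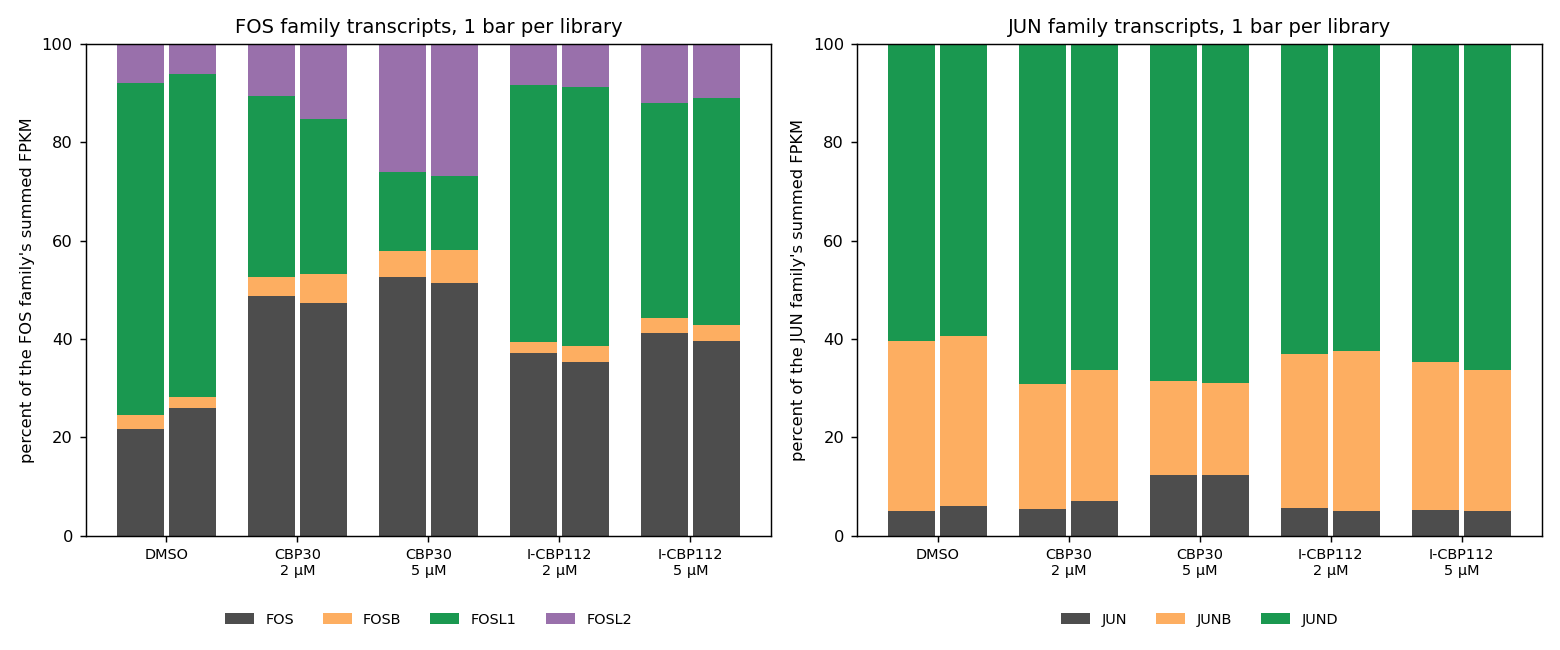
Share of each gene in the summed FPKM of the FOS family (left) and the JUN family (right), in percent on the y axis, with 1 bar per library and replicate 1 left of replicate 2 in each condition. FOSL1 takes 66.6% of the FOS family on average with DMSO and 15.5% at 5 µM CBP30, while JUND is the largest part of the JUN family in each bar.

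The other genes of the pathway were taken from lists chosen by function. Of 30 genes for dimer partners and other bZIP factors, 25 were tested, and 4 were higher and 11 lower at 5 µM CBP30 (median log2 change -0.18, beside -0.01 over all genes), which is 60% called beside 46.6% of all genes, of which 21.2% were higher and 25.4% lower. At 2 µM CBP30, 6 were higher and 5 lower (44% beside 32.1%), at 5 µM I-CBP112 2 higher and 1 lower (12% beside 7.12%), and at 2 µM I-CBP112 limma called 0 (beside 1.6%), with 5 at an unadjusted p under 0.05. NFE2, the erythroid factor that binds an extended AP-1 motif with small MAF partners, fell from 78.3 and 77.3 FPKM with DMSO to 19.6 and 19.6 at 5 µM CBP30, a log2 change of -1.93 ± 0.10 (adjusted p = 1.65e-05). It also fell at 2 µM CBP30, with a log2 change of -1.33, and at 5 µM I-CBP112, with one of -0.69, a call lost under 4 of 21 alternative settings. ATF5, a stress-response factor, fell from 64.4 and 67.6 FPKM to 18.8 and 17.7 at 5 µM CBP30 (log2 change -1.80 ± 0.08), while at 2 µM it was at 62.2 and 56.0 FPKM. MAFF, a small MAF protein, fell from 4.68 and 4.39 FPKM to 2.08 and 2.2 at 5 µM CBP30. BATF3, which pairs with JUN proteins in immune cells, rose from 2.21 and 3.06 FPKM to 5.50 and 6.09 at 5 µM CBP30, but to 17.2 and 13.1 at 2 µM, and to 6.72 and 7.85 at 5 µM I-CBP112.

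Of 20 MAP kinase genes, 16 were tested, and 4 were higher and 3 lower at 5 µM CBP30, 43.8% called beside 46.6% of all genes. At 2 µM CBP30 3 were higher (18.8% beside 32.1%), at 5 µM I-CBP112 1 was higher (6.25% beside 7.12%), and at 2 µM I-CBP112 limma called 0 (beside 1.6%), with 1 at an unadjusted p under 0.05. MAP2K4, which phosphorylates the JUN N-terminal kinases, rose from 9.38 and 9.86 FPKM to 14.1 and 14.0 at 5 µM CBP30 (log2 change 0.50 ± 0.06). MAPK14, the p38 alpha kinase, rose from 22.9 and 24.2 FPKM to 28.8 and 31.5, and MAPK7, or ERK5, from 2.17 and 2.12 to 2.77 and 3.24. MAP2K5, the kinase that activates ERK5, fell from 18.8 and 18 FPKM to 13.5 and 14.0.

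The list for serum response factor, which with its partners drives FOS transcription after growth factor signals, had 9 genes, all tested. It also held MEF2A, MEF2C and MEF2D, so its counts and medians are not those of serum response factor and its cofactors alone. At 5 µM CBP30, 3 rose and 1 fell, so that 44.4% were called, close to the 46.6% of all genes. The median log2 change was 0.30, the value of MEF2A, which was not called. In the other 3 comparisons with DMSO limma called 0 of 9, with 1 at an unadjusted p under 0.05 in each, beside 32.1% of all genes at 2 µM CBP30, 7.12% at 5 µM I-CBP112 and 1.6% at 2 µM I-CBP112. MKL2, a coactivator of serum response factor, went from 4.57 and 4.95 FPKM to 7.59 and 7.57, ELK3 from 3.72 and 3.97 to 6.23 and 6.08, and ELK1 from 31.9 and 30.6 to 39.7 and 39.1. The MKL2 call was lost under 10 of 21 alternative settings. SRF itself fell from 16.6 and 14.8 FPKM to 13 and 13.1, a log2 change of -0.25 ± 0.07 (adjusted p = 0.024). The number that rose depended on single libraries: it was 1 without any 1 of the DMSO or 5 µM CBP30 libraries and 6 without either library of 2 µM CBP30.

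Other immediate early genes moved in both directions. Of 19 listed, 14 were tested, and 7 were higher and 3 lower at 5 µM CBP30 (median log2 change 0.30), 6 higher and 3 lower at 2 µM CBP30, 4 higher at 5 µM I-CBP112 and 3 higher at 2 µM I-CBP112. In this order 71.4%, 64.3%, 28.6% and 21.4% of the tested genes of the list were called, beside 46.6%, 32.1%, 7.12% and 1.6% of all genes. IER3, an early response gene that modulates cell survival, was at 29.1 and 26.8 FPKM with DMSO, 126 and 87.6 at 2 µM CBP30, 87.7 and 90.9 at 5 µM CBP30, 54.8 and 56.2 at 2 µM I-CBP112, and 69.0 and 68.5 at 5 µM I-CBP112. It passed the test in all 4 comparisons with DMSO, as did BTG2, an antiproliferative gene, at 31.0 and 32.3 FPKM with DMSO, 89.7 and 87.1 at 5 µM CBP30 and 55.9 and 53.9 at 5 µM I-CBP112. In these genes, as in FOS, all treated libraries lay above DMSO. Their 2 µM I-CBP112 calls were lost under 8 (IER3) and 5 (BTG2) of 21 alternative settings. KLF10, a repressor induced by TGF-beta, fell from 26.0 and 26.7 FPKM to 16.7 and 15.7 at 5 µM CBP30 (log2 change -0.67 ± 0.06), and CYR61, a secreted matrix protein, fell from 1.42 and 1.40 to 0.436 and 0.493 (log2 change -0.72 ± 0.08). Neither passed the test with I-CBP112. CYR61 missed narrowly at 5 µM I-CBP112, at 0.977 and 0.791 FPKM (log2 change -0.36 ± 0.08, adjusted p = 0.0502). Without any 1 of the DMSO or 5 µM CBP30 libraries, 4 of the list rather than 7 were higher at 5 µM CBP30.

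The genes for turnover of AP-1 proteins and for their cofactors, CREBBP and EP300 included, numbered 8. Of these, 1 was higher and 1 lower at 5 µM CBP30, 25% called beside 46.6% of all genes. In the comparisons of 2 µM CBP30, 5 µM I-CBP112 and 2 µM I-CBP112 with DMSO limma called 0, with 1, 0 and 1 at an unadjusted p under 0.05, beside 32.1%, 7.12% and 1.6% of all genes. FBXW7, a ubiquitin ligase subunit that recognises c-Jun, went from 5.32 and 6.27 FPKM to 7.25 and 6.92 (adjusted p = 0.0421), and RFWD2, the ligase also called COP1, from 28.1 and 28.9 to 24.2 and 25.8 (adjusted p = 0.0489). Both calls were close to the threshold and were lost under 10 and 16 of 21 alternative settings.

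Among 22 textbook AP-1 targets, 13 were tested, and 6 were higher and 2 lower at 5 µM CBP30, 4 higher and 2 lower at 2 µM CBP30, 3 higher and 1 lower at 5 µM I-CBP112, and 2 higher at 2 µM I-CBP112. In this order 61.5%, 46.2%, 30.8% and 15.4% of the tested targets were called, beside 46.6%, 32.1%, 7.12% and 1.6% of all genes. CCND1, the gene for cyclin D1, fell from 4.41 and 4.31 FPKM with DMSO to 1.01 and 0.990 at 2 µM CBP30, 0.673 and 0.750 at 5 µM CBP30 and 2.23 and 2.95 at 5 µM I-CBP112. Its log2 change at 5 µM CBP30 was -1.65 ± 0.10 (adjusted p = 3.02e-05). PLAU, the urokinase gene, rose in all 4 comparisons, from 3.15 and 3.27 FPKM to 8.20 and 9.36 at 5 µM CBP30 and to 5.31 and 5.53 at 5 µM I-CBP112. TIMP1, a metalloproteinase inhibitor, rose from 171 and 175 FPKM to 374 and 393 at 5 µM CBP30. HBEGF, a growth factor of the EGF family, rose from 0.242 and 0.375 FPKM to 0.933 and 0.954 at 5 µM CBP30. Its DMSO mean of 0.309 FPKM was under the 0.5 FPKM of the filter, which it passed on its average over all libraries. The HBEGF call at 2 µM CBP30 (limma, adjusted p = 0.0421) was lost under 11 of 20 alternative settings. The CCND1 call at 5 µM I-CBP112 was lost under 4 of 20 alternative settings and the PLAU call at 2 µM I-CBP112 under 5 of 21.

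**Figure D5:**
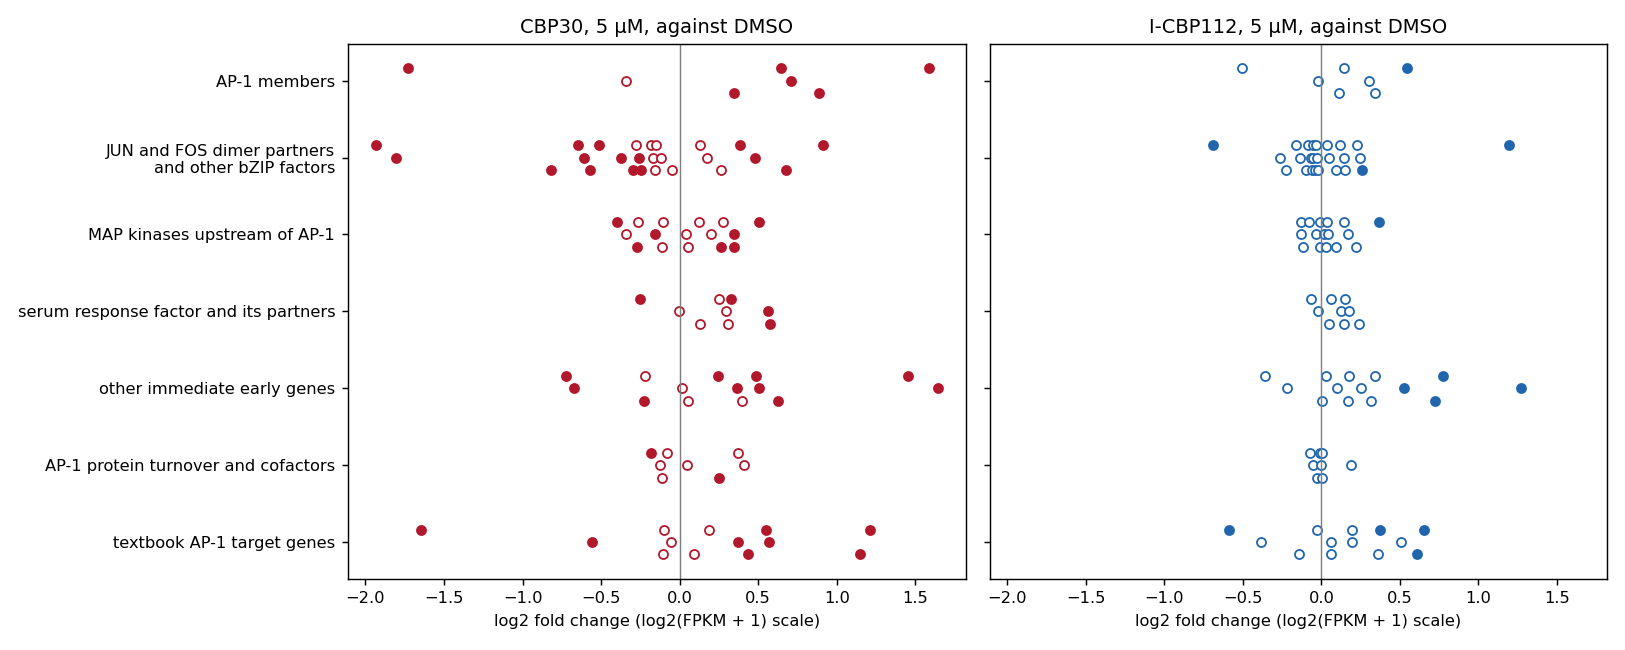
Log2 fold change against DMSO (x axis, on the log2(FPKM + 1) scale) at 5 µM CBP30 (left) and 5 µM I-CBP112 (right) for each tested gene of the AP-1 members and the 6 lists (rows). Filled points had an adjusted p under 0.05, and points are spread vertically within a row only to keep them apart. With CBP30, 7 other immediate early genes were called higher and 3 lower. With I-CBP112, 4 were called higher and none of the 14 tested was called lower.

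The genes nearest in pattern to each member called with 5 µM CBP30 were sought among 8997 genes that averaged at least 5 FPKM, by the root mean square difference of their log2 change from the DMSO mean over the 8 treated libraries. For JUN they were ANXA6, CCRL2 and LGR4, at differences of 0.19, 0.21 and 0.22, the loosest matches of the 6 called members. ANXA6, a calcium-dependent membrane-binding protein, averaged 28.3 FPKM with DMSO, 74.0 at 5 µM CBP30 and 35.7 at 5 µM I-CBP112. For FOSL1 they were CYP2F1, EPHX2 and BLVRB, at 0.10, 0.12 and 0.13. BLVRB, biliverdin reductase B, averaged 170 FPKM with DMSO, 50.6 at 5 µM CBP30 and 111 at 5 µM I-CBP112. For FOS they were NAB2, ARHGEF2 and MRC2, at 0.07, 0.09 and 0.09. NAB2, a corepressor of the EGR factors, averaged 16.5 FPKM with DMSO and 26.5, 25.3, 23.6 and 24.1 at 2 µM and 5 µM CBP30 and 2 µM and 5 µM I-CBP112. JUND was nearest to BST2, C17orf49 and GIPC1 (0.10, 0.11 and 0.11). Because 1 was added before taking logs, the changes of low genes such as FOS and FOSL1 shrink more than those of their more abundant matches. FOSL1 averaged 6.42 FPKM with DMSO and 1.24 at 5 µM CBP30, whereas CYP2F1 averaged 20.7 and 5.58. All of these points share the DMSO mean and the same libraries, so the likeness is a description.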

How the data were processed

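RNA-seq reads were processed by the authors, and the deposited file is 1 table of FPKM per gene and library, normalized across libraries. The submitters' processing notes name FastQC, TopHat2 2.0.10, Bowtie 1.0.0, SAMtools 0.1.19, Cufflinks 2.2.1 and Cuffnorm, and the build was GRCh37 (hg19). The gene annotation is not given in the sources used here. FPKM hold no read counts, so the depth behind each value is unknown.

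Samples were grouped by their labels. Values were taken as log2(FPKM + 1), genes averaging at least 0.5 FPKM were kept, and 1 fit of all 10 libraries in limma 3.58.1 (R 4.3.3; eBayes with trend, 5 residual degrees of freedom) gave each contrast, its SE and its 95% confidence interval, and p-values were adjusted by the Benjamini-Hochberg method across every gene in the fit. The fit was tested on simulated data with noise drawn separately for each gene and library. That test does not cover effects shared across a library, such as a trend with transcript length. The p-values set each difference against the spread between replicates, pooled over all 5 conditions and moderated by that of other genes. This spread may be technical. The members and the lists were chosen with earlier results of these data known. Named besides the members were up to 4 called genes per list with the largest absolute change with 5 µM CBP30, and the 3 nearest genes per called member, which for FOSL2 and ATF3 are not reported here. Alternatives were another pseudocount, filter, scaling or variance model, a fit of only the groups compared, a replicate block, removal of each library's trend with transcript length (lengths known for 94.9% of genes tested), leaving out small RNA genes, and leaving out each library. Promoter windows were searched on both strands.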

Additional observations from a re-analysis of the deposited data

How the results depend on the processing

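The limits are 2 libraries per condition, values without read counts and 1 library, replicate 1 of 2 µM CBP30, with a length trend of its own. Of 1008 recomputed log2 changes of the members, 897 kept their direction and their side of the threshold, 46 lost a call, 42 gained one and 23 changed sign. The comparison between the I-CBP112 concentrations was left out of these. FOS between the CBP30 concentrations became a call, at 0.28, with the length trend removed, with or without the block. The calls of JUN, ATF3, FOS, FOSL1 and FOSL2 with 5 µM CBP30 against DMSO held in every alternative in which the gene was tested. FOS, FOSL1 and FOSL2 were not tested with the filter at 5 FPKM. The call of FOS with 5 µM I-CBP112 was lost in 10, that of JUND with 2 µM CBP30 in 10 and that of JUND with 5 µM CBP30 in 6. Of 872 recomputed values of 42 calls among the named list genes, 90 lost the call and 0 changed sign. Of 1008 recomputed list counts, 201 moved by more than 1.5 times or went from or to 0.

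The counts of called members below are given in the order 5 µM CBP30, 2 µM CBP30, 5 µM I-CBP112 and 2 µM I-CBP112 against DMSO, which were 6, 4, 1 and 0. Raising the filter to an average of 5 FPKM, which left 4 members, turned the first 3 into 3, 2 and 0, the count between the CBP30 concentrations into 2, and those between the compounds into 2 at 5 µM and 1 at 2 µM. A fit of only the groups compared, with 2 residual degrees of freedom, gave 0 with 2 µM CBP30, 3 with 5 µM I-CBP112, 0 between the CBP30 concentrations and 0 between the compounds at 2 µM. With 5 µM I-CBP112 the count was 0 without a filter, 0 with quantile normalization, 2 without small RNA genes and 2 with the length trend removed, with or without the block. Removing the length trend gave 1 with 2 µM I-CBP112. Without one library, the counts ranged from 5 to 7, 3 to 5, 0 to 4 and 0 to 1 against DMSO, from 2 to 6 between the CBP30 concentrations, from 3 to 6 between the compounds at 5 µM and from 0 to 5 at 2 µM. Where a library left out leaves its condition with 1, that sample is assumed to vary like the other groups. The cause of these changes was otherwise not tested.

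Same-numbered samples showed no shared deviation, with correlations over 10 pairs of conditions from -0.07 to 0.09. The labels do not say whether same-numbered samples were handled together, and these correlations cannot exclude it. A fit blocked on the replicate number gave counts of 6, 4, 1 and 0 against DMSO, 4 and 0 between concentrations and 4 and 2 between compounds, the same as without it.

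The signs that changed belonged to differences that were not called in the fit reported, and 1 of them became a call, JUND between the CBP30 concentrations without replicate 2 of 2 µM CBP30. For JUNB at 2 µM CBP30 against DMSO, the value without the length trend was -0.0032 and ranged from -0.20 to 0.43 without one library, and ATF3 became -0.0028 with the length trend removed. JUNB at 5 µM I-CBP112 was 0.013 with quantile normalization and -0.079 to 0.041 without one library. At 2 µM I-CBP112, JUNB was 0.024 with quantile normalization, and without one library JUNB ranged from -0.067 to 0.034, FOSL2 from -0.0057 to 0.21 and JUN from -0.044 to 0.17. Between the CBP30 concentrations, FOS ranged from -0.075 to 0.21 and JUND from -0.36 to 0.40 without one library, and JUND was -0.017 with median centring. Between the compounds at 2 µM, removing the length trend gave -0.0018 for JUNB and -0.084 for ATF3, with or without the replicate block, and JUNB ranged from -0.18 to 0.45 without one library.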
